A study of Mus musculus with 4 samples.

Results

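The response to a brain-penetrant TREM2 antibody was measured inside the microglial cluster that carried the plaque-associated genes. The members were the cells that the authors' clustering at resolution 0.2 placed in cluster 1, in AppSAA mice that received ATV:4D9 or the isotype ATV:ISO. There were 9390 such cells of 74758 in the series, 2186 from 4 ATV:4D9 mice and 7204 from 4 ATV:ISO mice. Over all 20 mice cluster 1 held 14963 cells. The cells had been sorted from brain as live CD11b+ cells, tagged by mouse, and captured in 4 pools with 1 mouse of each of 5 groups in each pool. The deposited texts differ on whether CD45 was also used in the sort and on whether hippocampus was taken with the cortex. All mice carried TfRmu/hu, in which a human apical domain replaces that of the mouse transferrin receptor. The 12 AppSAA mice were homozygous for TfRmu/hu and for a humanised App gene with familial Alzheimer's disease mutations at its own locus. They were recorded as male and as 8 months old. Each received 1 intravenous dose of 10 mg per kg of ATV:ISO, 4D9 or ATV:4D9, 4 mice each, and was sampled 24 h later. The isotype arm is labelled ATV-DNP02 in the deposited annotation and was read as ATV:ISO. The other 8 mice, WT;TfRmu/hu given ATV:ISO or ATV:4D9, had 12 to 62 cells each in cluster 1 and were not compared here. 4D9 is an agonist antibody against TREM2. ATV:4D9 carries in addition an Fc region that binds the human part of the transferrin receptor, by which it crosses the blood-brain barrier. According to the annotation the Fc regions of 4D9 and ATV:4D9 also differed in the mutations that silence Fc receptor binding, so the arms do not differ by transferrin receptor binding alone.

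TREM2 is a lipid-sensing receptor of microglia that signals through the adaptor TYROBP, the kinase SYK and phosphoinositide 3-kinase. Around amyloid plaques, microglia turn on a TREM2-dependent programme of lipid handling, lysosomal and adhesion genes, the disease-associated microglia (DAM) genes, and lower the homeostatic genes that mark resting microglia. Type I interferon induces antiviral genes through the factor complex ISGF3, which binds the interferon-stimulated response element (ISRE) in their promoters. Cells low in sterols release SREBP-2, which switches on the enzymes of cholesterol synthesis, whereas cholesterol-derived oxysterols activate the nuclear receptor LXR, which induces the cholesterol exporters ABCA1 and ABCG1 and their acceptor APOE.

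Cluster 1 carried the genes of its label in both arms, with less contrast to the other cells after ATV:4D9. Of 16 DAM markers, 16 were higher in cluster 1 than in the other cells of the same mouse in each of the 4 ATV:ISO mice, with a median log2 ratio of 2.69. In the ATV:4D9 mice 15 of 16 were higher in each of the 4 mice, with a median log2 ratio of 1.69. Of 8 homeostatic markers, 8 were lower in each ATV:ISO mouse (median -1.11) and 6 in each ATV:4D9 mouse (median -0.16). All 8 cycling markers were lower in each of the 8 mice. Of 8 interferon-responsive markers, which name another microglial state, 7 were lower in each ATV:ISO mouse (median -1.19) and 8 in each ATV:4D9 mouse (median -2.56). Because these genes took part in the clustering, the ratios describe the cells and test nothing. The other cells differed between the arms too, so a ratio could move without cluster 1. Itgax averaged 281 (ATV:ISO) and 280 (ATV:4D9) per 1000000 UMIs in cluster 1, and 28.5 and 66.5 in the other cells. Isg15 averaged 29.1 and 102 in cluster 1, and 74.65 and 627 in the others. Lpl moved in both, from 844 to 431 in cluster 1 and from 129 to 276 in the others. Cluster 1 made up 33.5 to 44.6% of the cells of the ATV:ISO mice and 9.24 to 16.4% of those of the ATV:4D9 mice, and the groups did not overlap. The sorting of cells into clusters rested on the same transcriptomes. A change of gene expression inside the cells that stayed in the cluster and a change in which cells were placed there cannot be told apart.

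The 8 sums held 5201336 to 36805567 UMIs from 355 to 2269 cells, with fewer cells and UMIs in every ATV:4D9 mouse than in every ATV:ISO mouse. The median number of UMIs per cell was 14400 ± 732 (SD, n = 4) in ATV:ISO mice and 13172 ± 1342 in ATV:4D9 mice, a difference of -1228 that was negative in 4 of 4 pools and did not pass a two-sided exact permutation test (p = 0.143, smallest possible 0.0286). Summed levels of markers of other cell types overlapped between the arms. The sum of 10 border macrophage markers stood at 22.1 to 42.3 CPM (UMIs per 1000000 of the mouse's UMIs) in ATV:ISO mice and 38.5 to 57.9 in ATV:4D9 mice (median log2 fold change 0.34 over the 9 tested), that of monocyte markers at 12.7 to 32.1 and 18.7 to 29.0, and that of neutrophil markers at 148 to 211 and 140 to 220. Within pools, the border macrophage sum was higher in the ATV:4D9 mouse in 4 of 4 pools, as was the neuron sum (0.355 to 1.2 and 0.473 to 1.82 CPM), and the lymphocyte sum was lower in 4 of 4 (13.4 to 14.7 and 8.72 to 14.2 CPM). The other 5 sums went both ways. Of the tested markers of border macrophages, monocytes, neutrophils, astrocytes, oligodendrocytes and vessel cells 0 were called by edgeR, and 0 neuron markers passed the filter on low counts. The part of these cells in the results was not tested. Klrb1c, of the lymphocyte list, was called lower (log2 fold change -1.11). It and the other genes below that lie outside the naming rule, among them the uncalled members of a list, were named after their values were seen.

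ATV:4D9 changed 1343 of 12231 genes tested in cluster 1 (11% called), 725 of them higher (5.93%) and 618 lower (5.05%) than with ATV:ISO. A call is an adjusted p below 0.05 in edgeR's quasi-likelihood test on counts summed per mouse, with the pool as a block. Without that block 215 genes were called, 138 higher and 77 lower. Most shifts were small, with 58 of the higher and 27 of the lower genes past a 2-fold change. The 4 mice of one arm all lay above the 4 of the other in 623 of the 1343 called genes and in 901 genes in all (7.37% of those tested). Over the 12231 genes the median log2 fold change was -0.00030. Levels are given as normalised CPM, which are UMIs per 1000000 UMIs of a mouse's cluster 1 cells, with a further scaling between mice. They are relative to the other genes of those cells. The shares of all genes called, 5.93% higher and 5.05% lower, are the background for every list in cluster 1. The leading rises were interferon-stimulated genes, and the leading falls included the lipase Lpl, the amino acid oxidase Il4i1, the chemokines Ccl6 and Ccl9, and sterol genes. The plot of fold change against level shows both sides.

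**Figure D1:**
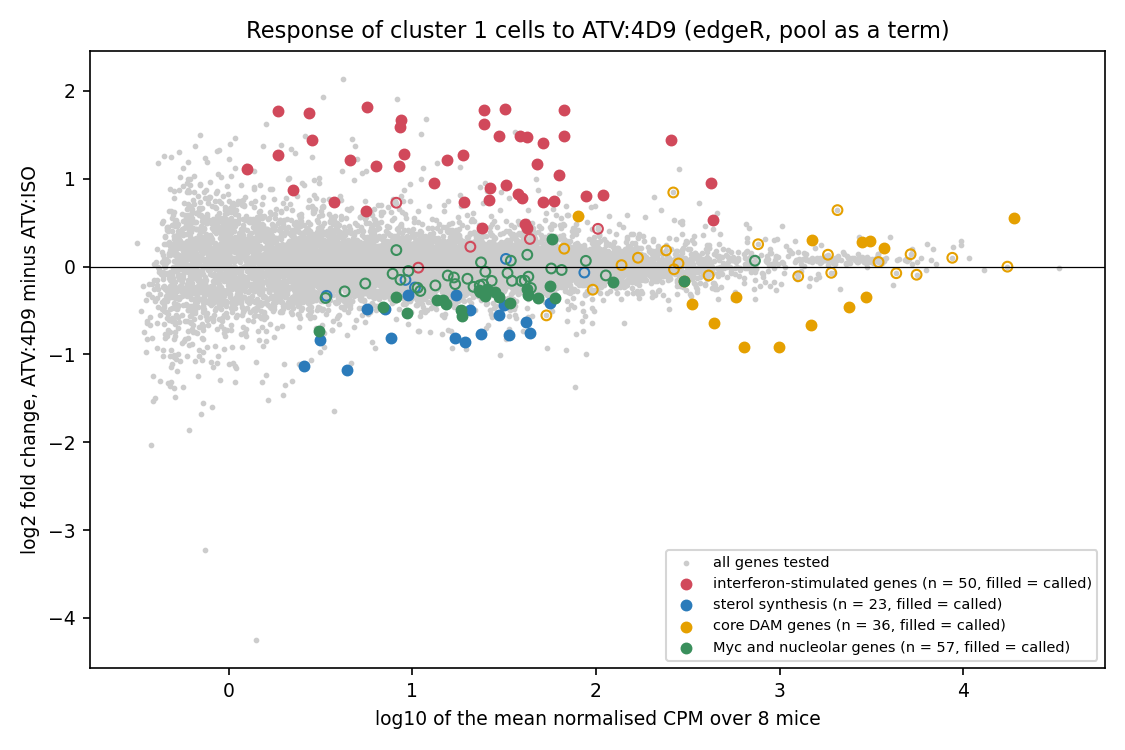
Log2 fold change (ATV:4D9 minus ATV:ISO) of the 12231 genes tested in cluster 1 against the log10 of their mean normalised CPM over 8 mice (grey points), with interferon-stimulated (red), sterol synthesis (blue), core DAM (orange) and Myc and nucleolar genes (green) drawn larger and filled where called. The 45 called interferon-stimulated genes lie above 0 and the 18 called sterol synthesis genes below it, while the core DAM genes lie on both sides.

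Interferon-stimulated genes formed the clearest group. Of 50 tested, 45 were higher after ATV:4D9 and 0 lower, with a median log2 fold change of 1.08, where that of all genes was -0.00030 and 5.93% were called higher. The groups of mice did not overlap in 43 of the 50, against 7.37% of all genes. Without the pool block 37 were called, and leaving out 1 mouse at a time left 42 to 47. Those not called were Gbp7 (log2 fold change -0.01), Igtp (0.23), Ifitm2 (0.32), Cxcl10 (0.43) and Gbp5 (0.73). Gbp5, Gbp7 and Igtp are GTPases that answer to interferon-gamma more than to type I interferon. The promoters of 3 leading genes are shown because they hold the element through which ISGF3 acts. In each line the ISRE match is in capitals, the sequence is that of RefSeq on GRCm38.p6, and it is written 5′ to 3′ on the strand of the gene.
Ifit3 (chr19:34583358-34583431, plus strand): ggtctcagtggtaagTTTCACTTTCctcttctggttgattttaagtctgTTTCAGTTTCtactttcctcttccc
Isg15 (chr4:156200860-156200911, minus strand): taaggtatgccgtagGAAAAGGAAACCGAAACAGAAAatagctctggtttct
Ifi207 (chr1:173741826-173741865, minus strand): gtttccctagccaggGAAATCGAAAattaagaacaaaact
The 250 bases before and 50 after the first listed start of a gene were searched on both strands for the ISRE. Promoters were matched for 38 of the 50 genes, and 24 of the 38 held the ISRE (63.2%), compared with 298 of 9423 tested genes (3.16%) and 943 of all 27025 promoters (3.49%). Among the called genes of the list 19 of 33 held it (57.6%), and so did all 5 that were not called. Over the whole comparison 62 of 581 matched genes that were called higher (10.7%) and 7 of 476 that were called lower (1.47%) held a match. Ifit3 had 2 separate matches, Isg15 had 3 that overlap, and Irf7, Ifit2 and Oasl2 had none in this window. A match describes the sequence and is not a measured binding site.

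Ifit3, an antiviral protein that binds with its relatives to foreign RNA (ENSMUSG00000074896.3, chromosome 19, 34583531 to 34588731, plus strand, GRCm38), was at 15.9, 11.3, 13.7 and 14.2 normalised CPM in the ATV:ISO mice of pools 1 to 4 and at 73.0, 47.2, 48.5 and 32.6 in the ATV:4D9 mice. Every ATV:4D9 mouse lay above every ATV:ISO mouse, and the log2 fold change was 1.79 ± 0.19 (SE, adjusted p = 0.00150). Its close copy Ifit3b moved likewise (1.82), and reads of the pair may be divided between them by the counting. Isg15, the ubiquitin-like modifier (ENSMUSG00000035692.6, chromosome 4, 156199424 to 156200818, minus strand), was at 34.7, 26.3, 27.9 and 26.1 with ATV:ISO and 169, 88.3, 103 and 62.0 with ATV:4D9, again without overlap and with the ATV:4D9 mouse of pool 1 the highest. Its log2 fold change was 1.78 ± 0.17 (SE, adjusted p = 0.00105). Ifitm3, a membrane protein that blocks virus entry, was at 173, 131, 130.0 and 109 with ATV:ISO and 529, 365, 346 and 261 with ATV:4D9, with a log2 fold change of 1.44 ± 0.10 (SE, adjusted p = 6.36e-05). Irf7, the factor that amplifies the type I interferon response, was at 8.12 to 14.7 with ATV:ISO and 25.6 to 62.1 with ATV:4D9 (1.79, adjusted p = 1.10e-04). The DNA sensor Zbp1 (1.62), the nuclear sensors Ifi207 (1.53) and Ifi204 (1.48), Ifit2 (1.49), Oasl2 (1.48) and the receptor transporter Rtp4 (1.48) were the other leading rises by the naming rule. The plot of 12 genes by mouse shows the leading members of several groups.

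**Figure D2:**
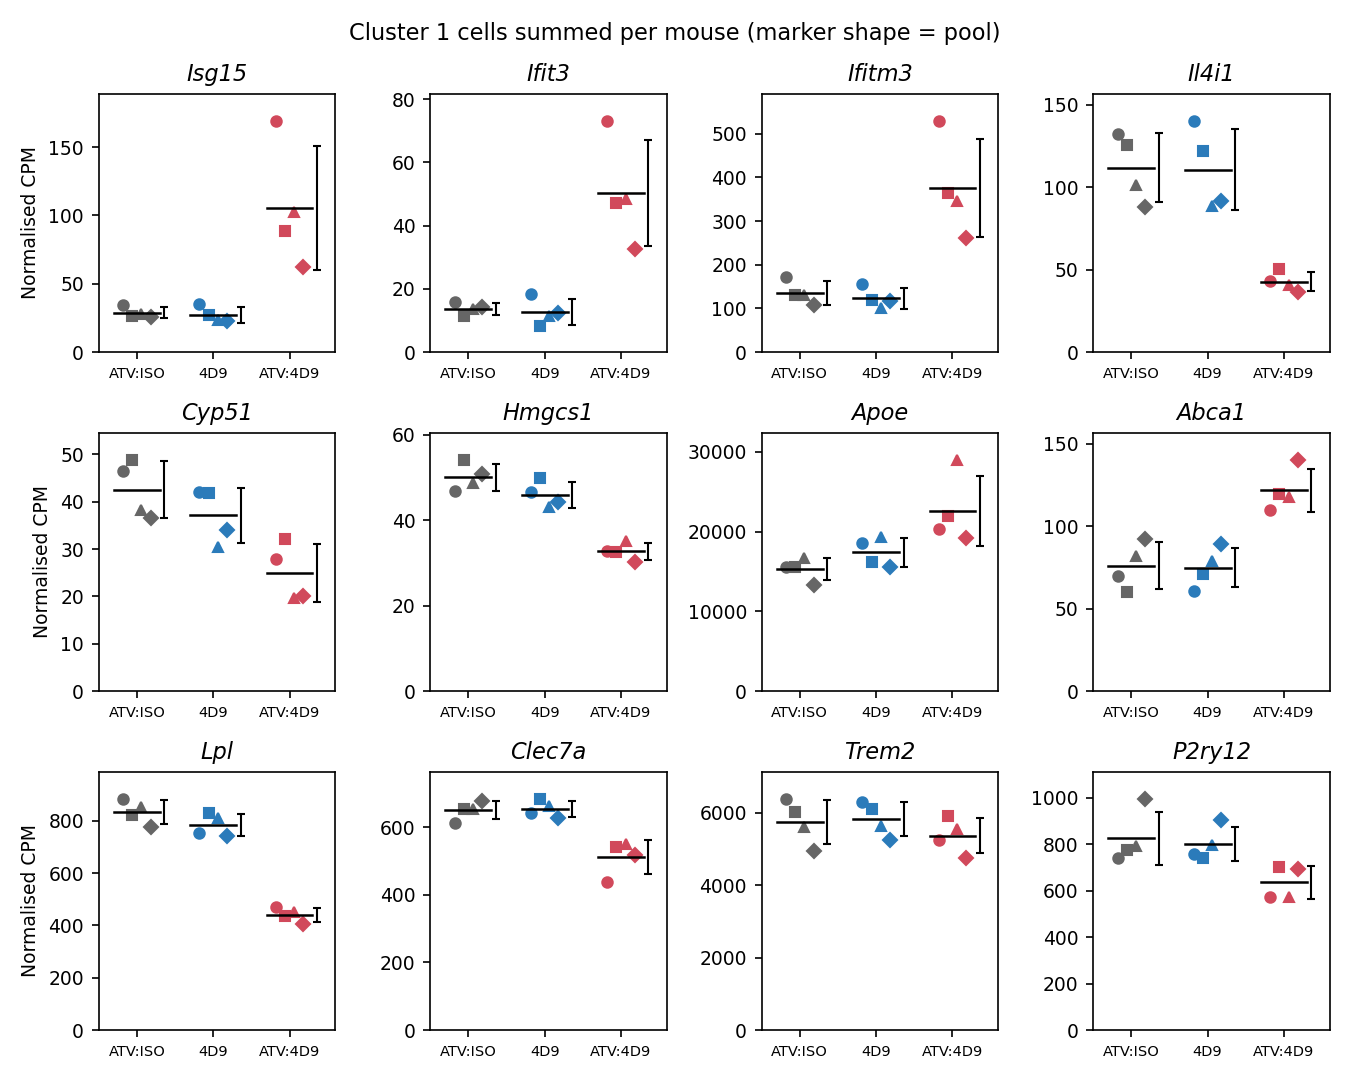
Normalised CPM in cluster 1 of each of the 4 ATV:ISO, 4D9 and ATV:4D9 AppSAA mice (points, with the pool as the marker shape), with the arm mean (horizontal line) and SD (bar), for 12 genes chosen after their values were seen. Each panel has its own axis from 0. Isg15 lies at 26.1 to 34.7 with ATV:ISO and 62.0 to 169 with ATV:4D9, while Lpl lies at 776 to 882 with ATV:ISO and 406 to 470 with ATV:4D9.

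The share of UMIs given to interferon-stimulated genes was then taken cell by cell. With each cell thinned to 5000 UMIs, the median cell gave 0.12 to 0.14% of its UMIs to these genes in the ATV:ISO mice and 0.22 to 0.32% in the ATV:4D9 mice. Unthinned medians were 0.126 to 0.142% and 0.213 to 0.327%. The cells at the 10th percentile stood at 0.04 to 0.06% and 0.06 to 0.10%, and those at the 90th percentile at 0.32 to 0.36% and 0.56 to 0.72%. The ranges of the arms met at the 10th percentile and did not overlap at the median or the 90th. Thinning left out 34 to 62 cells per ATV:ISO mouse and 9 to 34 per ATV:4D9 mouse. At a finer resolution of the authors' clustering, 0.0862 to 0.385% of cluster 1 cells of the ATV:ISO mice and 1.44 to 4.51% of those of the ATV:4D9 mice fell into finer cluster 5. With only finer clusters 3 and 6 kept, a setting chosen after the data were seen, 45 interferon-stimulated genes were called higher (median 0.94). Finer cluster 3 alone gave 41, with a median of 0.79. Mice of a pool shared 1 capture and with it the same free RNA, whose part in the levels was not tested.

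**Figure D3:**
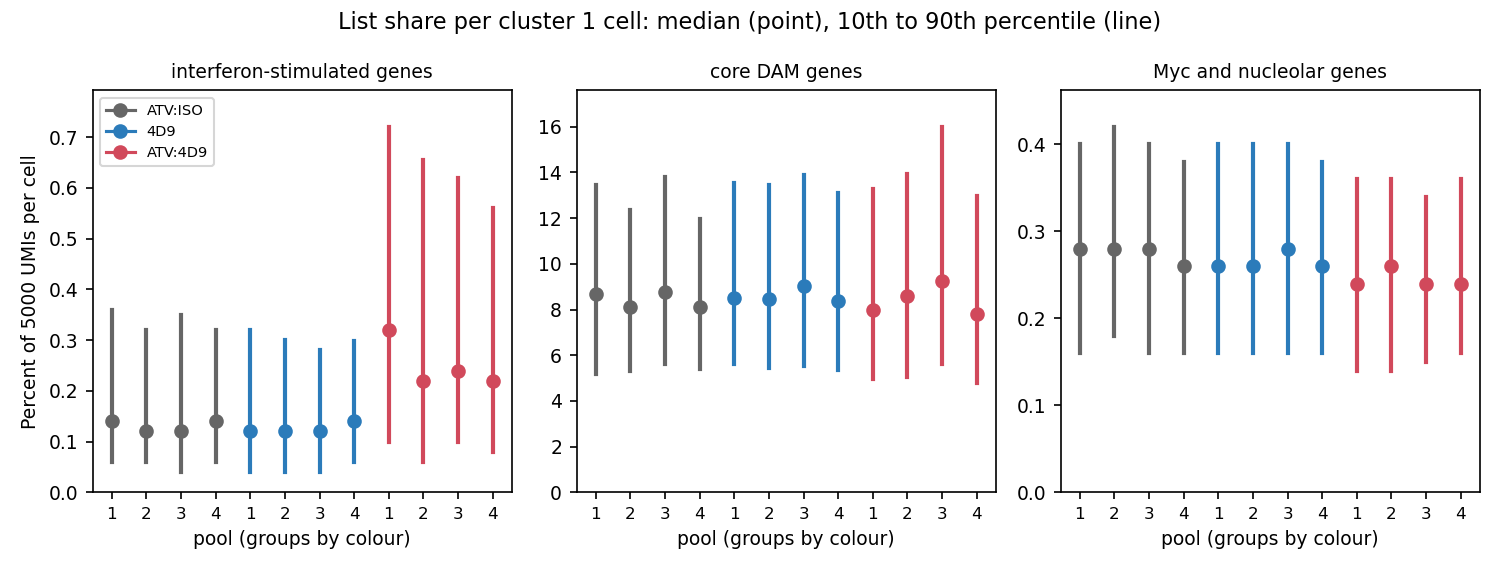
Share of UMIs (percent, cells thinned to 5000 UMIs) given to interferon-stimulated, core DAM and Myc and nucleolar genes in cluster 1 cells of each AppSAA mouse, as the median (point) with the 10th to 90th percentile of cells (line), coloured by arm. The median for interferon-stimulated genes is 0.12 to 0.14% in ATV:ISO mice and 0.22 to 0.32% in ATV:4D9 mice, and that for core DAM genes is 8.10 to 8.76% and 7.82 to 9.26%.

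Interferon also drives the genes of antigen presentation by MHC class I. Of the 18 tested 11 were higher, 7 were not called and 0 were lower (median log2 fold change 0.20), led by the immunoproteasome subunit Psmb9 (0.34), the non-classical class I gene H2-T23 (0.31), the proteasome activator Psme1 (0.30) and the peptide transporter Tap1 (0.29). Without the pool block 0 of the 18 were called by edgeR. Of 12 MHC class II genes 1 was higher, the co-stimulator Cd86 (0.18), and 2 were lower, the peptide-loading genes H2-DMa (-0.22) and H2-DMb1 (-0.22). The invariant chain Cd74 ranged from 844 to 2429 with ATV:ISO and 1221 to 1986 with ATV:4D9 (log2 fold change 0.22, adjusted p = 0.640).

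Several antibody receptors and complement genes were higher. Of 26 Fc and phagocytic receptors 7 rose and 2 fell (median 0.05). Fcgr4, an activating receptor for IgG, was at 18.4, 16.2, 19.4 and 18.0 normalised CPM with ATV:ISO and 35.0, 25.0, 32.8 and 28.3 with ATV:4D9. The groups did not overlap, and the log2 fold change was 0.72 ± 0.07 (SE, adjusted p = 2.37e-07). The high-affinity receptor Fcgr1 (0.53), the inhibitory receptor Fcgr2b (0.51), the apoptotic cell receptor Mertk (0.17), its ligand Gas6 (0.33) and the integrin Itgam (0.18) also rose, whereas the scavenger receptor Scarb1 (-0.28) and the glucan receptor Clec7a (-0.35) fell. Of 15 complement genes 5 were higher, including the 3 chains of C1q, namely C1qa (0.29), C1qb (0.23) and C1qc (0.26), and 0 were lower.

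Most genes of cholesterol synthesis fell. Of 23 sterol synthesis genes tested 18 were lower and 0 higher, with a median log2 fold change of -0.50, where 5.05% of all genes were called lower. Those not called were Tm7sf2, Fdft1, Mvk, Ebp and Pmvk. Cyp51, which demethylates lanosterol (ENSMUSG00000001467.5, chromosome 5, 4081145 to 4104746, minus strand), was at 46.6, 48.8, 38.4 and 36.5 normalised CPM with ATV:ISO and 28.0, 32.1, 19.7 and 20.2 with ATV:4D9. All 4 ATV:4D9 mice lay below all 4 ATV:ISO mice, with a log2 fold change of -0.78 ± 0.07 (SE, adjusted p = 1.12e-08). Sqle, the squalene epoxidase (-0.82), Idi1, which isomerises the isoprenoid unit (-0.81), and Insig1, the sterol-regulated anchor of SREBP (-0.77), fell alike. Hmgcs1, named after its values were seen because its promoter holds the sterol regulatory element, fell by 0.63 on the log2 scale (adjusted p = 5.85e-08). The element, spelled TCACCCCAC and searched on both strands, is in capitals.
Hmgcs1 (chr13:119690199-119690237, plus strand): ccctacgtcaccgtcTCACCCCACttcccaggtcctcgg
It was found in 1 of 16 matched promoters of the list (6.25%), in 0.499% of tested genes and in 0.522% of all promoters. Without the pool block 12 of the sterol synthesis genes were called lower, and without cells that held 2 or more UMIs of mitosis genes 7 were. Those cells were most of cluster 1, 69.7 to 79.3% in ATV:ISO mice and 67.3 to 78.7% in ATV:4D9 mice. Their summed level was 580 to 640 CPM with ATV:ISO and 396 to 458 CPM with ATV:4D9.

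Other lipid genes moved in both directions. Of 12 fatty acid synthesis genes 5 fell (median -0.16), with the fatty acid synthase Fasn (-0.60), the desaturase Scd2 (-0.64) and the regulator Srebf1 (-0.45) among them, and 1 rose, Thrsp (0.22). Of 23 genes of lipid handling and transport 6 rose and 3 fell (median 0.06). Abca1, the cholesterol exporter (ENSMUSG00000015243.4, chromosome 4, 53030787 to 53159895, minus strand), was at 69.9, 59.8, 81.9 and 92.2 normalised CPM with ATV:ISO and 109.6, 119, 118 and 139.9 with ATV:4D9, a log2 fold change of 0.69 ± 0.07 (SE, adjusted p = 7.55e-06). Its partner Abcg1 rose by 0.47 and the sterol carrier Npc2 by 0.16. Apoe, the main lipoprotein of the brain (ENSMUSG00000002985.16, chromosome 7, 19696109 to 19699188, minus strand), stood at 15588, 15550.5, 16646 and 13344 with ATV:ISO and 20374, 21954, 28945 and 19172 with ATV:4D9, without overlap. Its log2 fold change was 0.55 ± 0.06 (SE, adjusted p = 1.32e-06). Lpl, the lipoprotein lipase (ENSMUSG00000015568.16, chromosome 8, 68880491 to 68907448, plus strand), was at 882, 823, 852 and 776 with ATV:ISO and 469.7, 438, 451 and 406 with ATV:4D9, with every ATV:4D9 mouse below every ATV:ISO mouse, and fell by 0.92 ± 0.05 (SE, adjusted p = 4.15e-12) on the log2 scale. The endocytic receptor Lrp1 was lower (-0.38).

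**Figure D4:**
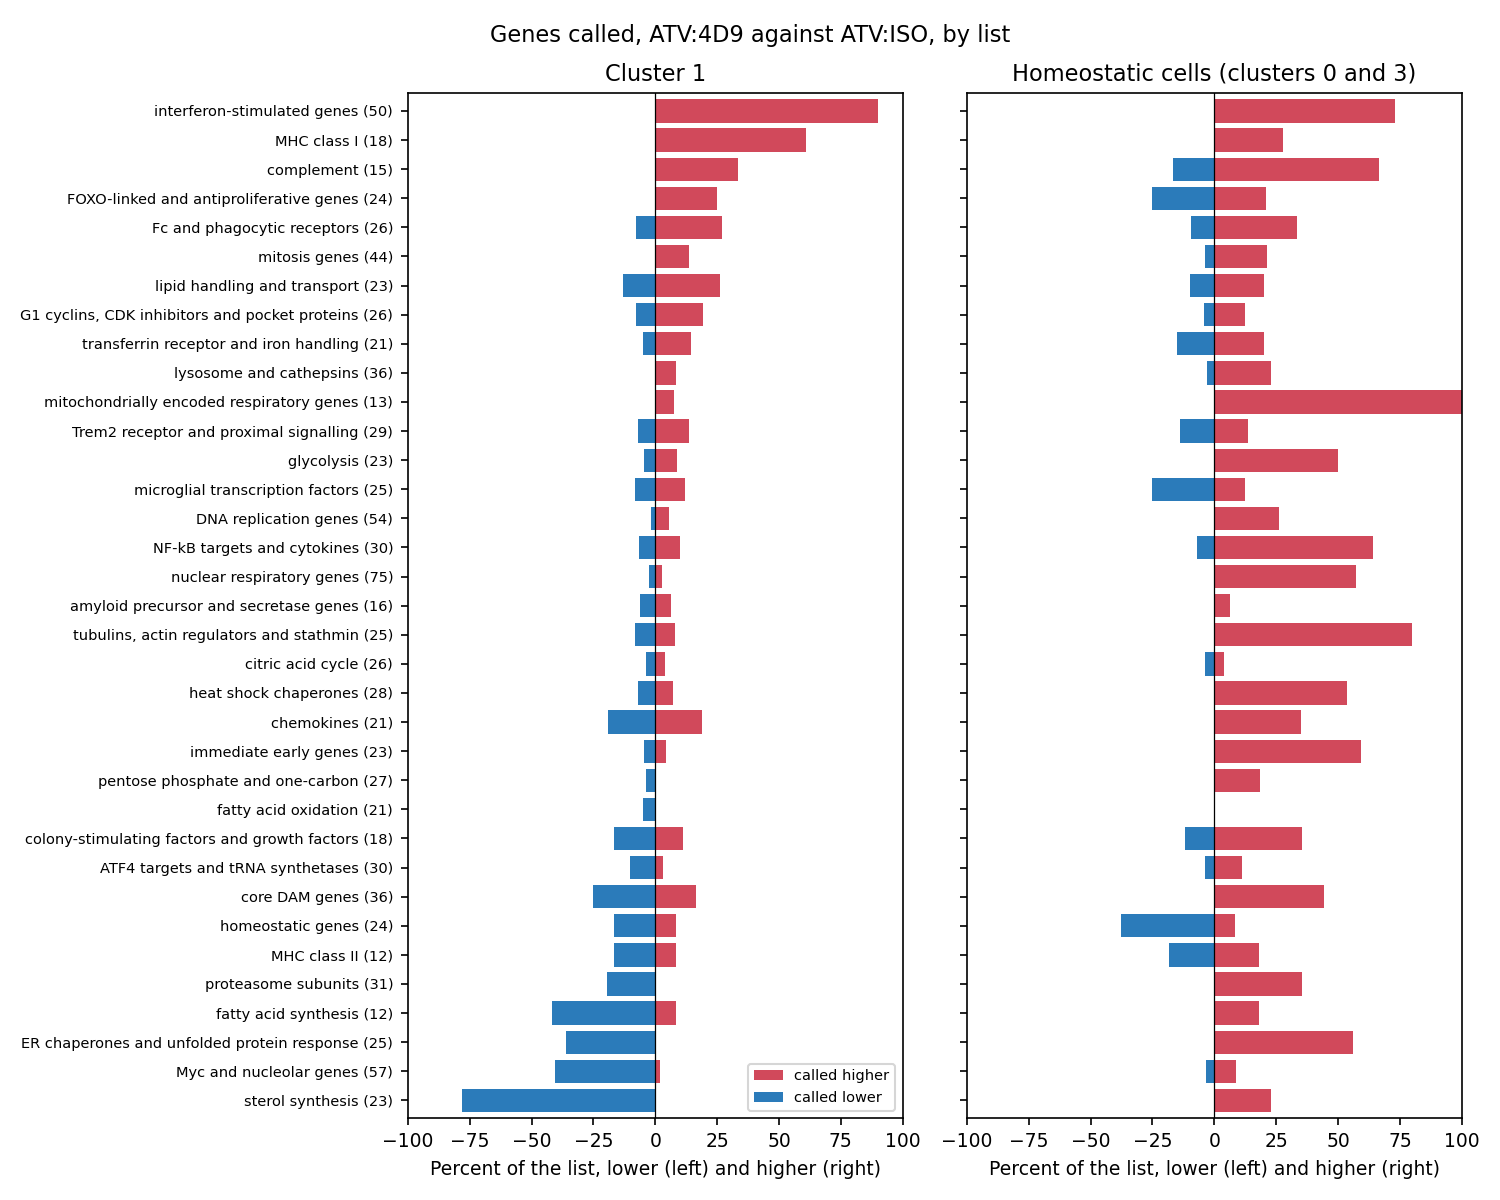
Percent of the tested members of each gene list that were called higher (red, right) or lower (blue, left) with ATV:4D9 against ATV:ISO, in cluster 1 (left panel, number tested in brackets) and in homeostatic cells (right panel). In cluster 1, 45 of 50 interferon-stimulated genes are higher and 18 of 23 sterol synthesis genes are lower, against 5.93% and 5.05% of all genes. The cluster 1 fit held 12 mice and the homeostatic fit 8, so the panels differ in power.

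The DAM genes had no common direction. Of 36 core DAM genes 6 rose and 9 fell, with a median log2 fold change of 0.01, where 5.93% of all genes rose and 5.05% fell. Those that rose were Apoe, the NADPH oxidase subunit Cybb (0.58), the protease inhibitor Timp2 (0.31), the cystatin Cst7 (0.29), lysozyme Lyz2 and B2m. Those that fell were Lpl, the chemokines Ccl6 (-0.92), Ccl3 (-0.67) and Ccl4 (-0.46), the pyrophosphate transporter Ank (-0.65), the growth factor Csf1 (-0.43), Clec7a (-0.35), the tetraspanin Cd9 (-0.35) and Cadm1. Without the pool block 1 rose and 6 fell. Cst7 was at 3198, 2862, 2794 and 2291 normalised CPM with ATV:ISO and 3457, 3628, 3629 and 2858 with ATV:4D9 (adjusted p = 6.20e-04). Clec7a was at 613, 655, 653 and 677 with ATV:ISO and 439, 540.5, 549.7 and 516 with ATV:4D9 (adjusted p = 2.91e-05). Il4i1, an amino acid oxidase outside the list, had the largest fall by the naming rule. It was at 132, 126, 101 and 87.8 with ATV:ISO and 43.0, 50.4, 40.8 and 36.6 with ATV:4D9, with no overlap and a log2 fold change of -1.37 ± 0.07 (SE, adjusted p = 9.03e-11). Other leading falls by the same rule were the growth-induced transcription factor Egr2 (-1.0), the deubiquitinase Otud1 (-1.0), the urokinase gene Plau (-0.95) and the adenylosuccinate synthase Adssl1 (-0.77).

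Other DAM genes were not called. Gpnmb, a glycoprotein of lipid-laden macrophages, was at 194, 211, 259.5 and 85.4 normalised CPM with ATV:ISO and 246, 338, 563 and 209 with ATV:4D9 (log2 fold change 0.84, adjusted p = 0.138). Spp1, osteopontin, was at 2181, 1296, 2296 and 751 with ATV:ISO and 3348, 2251, 2989 and 1377 with ATV:4D9 (0.64, adjusted p = 0.273). Both were higher in the ATV:4D9 mouse of each of the 4 pools, but ranges of the arms overlapped. The integrin Itgax (0.04), the receptor kinase Axl (0.10), the galectin Lgals3 (0.02), the growth factor Igf1 (0.19) and the lysosomal proteases Ctsb (0.14) and Ctsd (-0.000432) did not pass the test. Of 36 lysosome genes and cathepsins 3 rose, namely Ctsh (0.30), Ctss (0.20) and Ctsf (0.17), and 0 fell. Of 24 homeostatic genes 4 fell and 2 rose (median -0.10). The purinergic receptors P2ry12 (-0.37) and P2ry13 (-0.37) fell, as did Gpr34 (-0.17) and Golm1 (-0.20), and P2ry6 (0.16) and Mertk rose. P2ry12 was at 742, 776, 791 and 994 with ATV:ISO and 575, 702, 573 and 694 with ATV:4D9, and its call (adjusted p = 9.92e-05) was lost without the pool block. Tmem119 (-0.10), Cx3cr1 (-0.07), Csf1r (0.09) and Siglech (-0.08) were not called.

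The target itself was not called. Trem2 was at 6376, 6013, 5611 and 4950.5 normalised CPM with ATV:ISO and 5254, 5917, 5559 and 4759 with ATV:4D9 (log2 fold change -0.09 ± 0.05 (SE, adjusted p = 0.307)), and its adaptor Tyrobp had a log2 fold change of 0.10 (adjusted p = 0.235). Of 29 genes of the receptor and its proximal signalling 4 rose and 2 fell (median 0.07). The phosphoinositide 3-kinase adaptor Pik3ap1 (0.47), the catalytic subunit Pik3cd (0.20) and the adaptors Blnk (0.17) and Grb2 (0.13) rose, and the adaptor Lat2 (-0.26) and the catalytic subunit Pik3cg (-0.16) fell. Of 24 FOXO-linked and antiproliferative genes, many of which growth signalling through AKT represses, 6 rose and 0 fell. They included the phosphoinositide 3-kinase inhibitor Pik3ip1 (0.60), the ubiquitin ligase subunit Fbxo32 (0.51), Tcp11l2 (0.44) and the growth inhibitor Btg1 (0.37).

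The RNA of the transferrin receptor was lower in cluster 1. ATV:4D9 crosses the blood-brain barrier by this receptor, whose level at the barrier was not measured here. Tfrc (ENSMUSG00000022797.16, chromosome 16, 32608920 to 32632794, plus strand) was at 4.80, 6.1, 6.19 and 6.78 normalised CPM with ATV:ISO and 2.26, 3.59, 4.49 and 4.42 with ATV:4D9, a log2 fold change of -0.68 ± 0.15 (SE, adjusted p = 0.00239) that lost its call without the pool block. ATV:ISO carries an Fc region that binds the transferrin receptor as well, according to the study. Among the 21 genes of iron handling the ferritin heavy chain Fth1 (0.24), transferrin Trf (0.16) and the iron regulator Hfe (0.48) rose, and Tfrc was the only one of the list called lower.

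Of 57 Myc and nucleolar genes, which build ribosomes, 23 fell and 1 rose (median log2 fold change -0.21), where 5.05% of all genes fell and 5.93% rose. Myc was at 24.0, 19.1, 20.2 and 24.2 normalised CPM with ATV:ISO and 16.2, 14.8, 15.7 and 13.9 with ATV:4D9, a log2 fold change of -0.56 ± 0.09 (SE, adjusted p = 2.82e-04). The ribosome assembly factors Tsr1 (-0.52), Ppan (-0.49) and Bysl (-0.46) fell, and the Myc antagonist Mxi1 rose (0.31). Only 5 of the Myc and nucleolar genes were called lower without the pool block, 3 without cells with 2 or more mitosis UMIs (most of the cells, as given below), 8 with the same number of cells per mouse and 11 without ATV:4D9 replicate 2. The E-box CACGTG bound by Myc, which reads alike on both strands, was in 12 of 50 matched promoters of the list (24%), compared with 10.6% of tested genes. Among the members called lower 5 of 19 held it (26.3%), a share near that of the whole list. Of 25 endoplasmic reticulum chaperones and genes of the unfolded protein response 9 fell, among them Hyou1 (-0.36), Pdia4 (-0.25), Dnajc3 (-0.24) and Hsp90b1 (-0.22), and 0 rose. Against the same background, of 31 proteasome subunits 6 fell and 0 rose, each by less than the 2-fold mark, as in Psmd1 (-0.25) and Psmd6 (-0.20). Without the pool block 0 of the 25 chaperone genes were called by edgeR.

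Several cell cycle genes were called higher. Against a background of 5.93% higher and 5.05% lower, of 44 mitosis genes 6 rose and 0 fell (median 0.28), including Cenpa (0.54), Smc4 (0.40), Pttg1 (0.32) and Smc2 (0.29). The proliferation marker Mki67 was at 2.13, 0.929, 2.11 and 2.73 normalised CPM with ATV:ISO and 1.44, 0.837, 1.31 and 2.09 with ATV:4D9 (log2 fold change -0.48, adjusted p = 0.384) and was not called. Of 54 DNA replication genes 3 rose and 1 fell (median 0.19), with Rfc5 (0.35) and Lig1 (0.33) higher and Pcna (-0.20) lower, and Hells was not called (0.22). Of 26 genes of the cell cycle entry 5 rose and 2 fell. The CDK inhibitors Cdkn1c (0.43) and Cdkn2d (0.36) and the pocket protein Rbl2 (0.26) were higher, and Cdk6 (-0.19) and E2f3 (-0.34) lower. Cells with 2 or more UMIs of mitosis genes were 69.7 to 79.3% of cluster 1 in ATV:ISO mice and 67.3 to 78.7% in ATV:4D9 mice.

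Chemokines divided. Of 21 tested 4 rose and 4 fell (median 0.15). Those that rose included Ccl12 (1.11) and Ccl2 (0.74), which draw monocytes, and Cxcl16 (0.33), and Ccl6 (-0.92), Ccl9 (-0.93), Ccl3 (-0.67) and Ccl4 (-0.46) were lower. Ccl12 was at 245, 112, 148 and 189.6 normalised CPM with ATV:ISO and 691, 248, 252 and 373 with ATV:4D9. Ccl6 was at 1770.0, 1113, 1413 and 928 with ATV:ISO and 771, 628, 747 and 566 with ATV:4D9, and all 4 ATV:4D9 mice were below all 4 ATV:ISO mice. Chemokines of this family are close in sequence. Of 30 NF-kB targets and cytokines 3 rose and 2 fell (median 0.04), with Socs3, the feedback inhibitor of JAK-STAT signalling, at 0.79 (a call lost in 6 of 12 fits with 1 mouse left out), Il18 at 0.24 and Tgfb1 at -0.34. Of 23 immediate early genes Fosl2 rose (0.55) and Egr2 fell. Egr2 was at 39.5, 34.7, 46.2 and 39.2 normalised CPM with ATV:ISO and 21.0, 21.2, 20.4 and 17.9 with ATV:4D9, without overlap (adjusted p = 0.00154). Of 25 microglial transcription factors 3 rose, including Stat3 (0.55), and 2 fell, including Bhlhe40 (-0.45). Among 18 growth factor genes Csf1, the ligand that sustains microglia, fell (-0.43), and the cytokine receptor chains Csf2rb2 (0.54) and Csf2rb (0.29), which are near copies, rose.

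Few genes of energy metabolism were called in cluster 1. Of 75 nuclear respiratory genes 2 rose and 2 fell (median 0.00), of 13 mitochondrially encoded genes 1 rose, mt-Nd6 (0.20), and of 23 glycolysis genes 2 rose and 1 fell, the lactate transporter Slc16a1 (-0.39). Of 26 citric acid cycle genes 1 rose and 1 fell, and of 21 fatty acid oxidation genes Cpt1a fell (-0.35). The mitochondrial share of UMIs was 1.92 ± 0.460% (SD, n = 4) in ATV:ISO mice and 1.90 ± 0.487% in ATV:4D9 mice (two-sided exact permutation test, p = 0.857). Of 27 pentose phosphate and one-carbon genes 1 fell, Phgdh (-0.20). Heat shock chaperones gave 2 rises and 2 falls of 28, tubulins and actin regulators 2 and 2 of 25, and ATF4 targets and tRNA synthetases 1 and 3 of 30. Of the 16 genes of the amyloid precursor and secretase list the sorting receptor Sorl1 rose, from 14.8 to 20.9 normalised CPM with ATV:ISO to 28.2 to 35.6 with ATV:4D9 (log2 fold change 0.86 ± 0.12 (SE, adjusted p = 9.04e-04)). Apbb1ip, in the list but neither a precursor nor a secretase gene, fell (-0.19).

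4D9 without the transport Fc gave no called gene in cluster 1. Against ATV:ISO edgeR called 0 of 12231 genes (0%), and DESeq2 and limma-voom called 0 as well. By edgeR 360 genes had an unadjusted p below 0.05, a smaller share than the 0.05 that chance alone would give. The median log2 fold change of interferon-stimulated genes was -0.13 for 4D9 minus ATV:ISO. ATV:4D9 compared directly with 4D9 changed 1192 genes (9.75%), 684 higher (5.59%) and 508 lower (4.15%), and 47 of the 50 interferon-stimulated genes were higher. The first of these comparisons shares the ATV:ISO mice with the main one, and the second the ATV:4D9 mice. In the 4D9 mice Isg15 was at 35.3, 27.0, 23.3 and 22.8 normalised CPM, Ifit3 at 18.4, 8.36, 11.4 and 12.4, Lpl at 752, 829.5, 809 and 743 and Cyp51 at 42.0, 41.9, 30.4 and 34.1. For Lpl all 4 mice lay above the highest ATV:4D9 mouse. Apoe was at 18555, 16242, 19357 and 15555 and Abca1 at 60.7, 70.9, 78.7 and 89.1 in these mice.

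The response was then compared with that of homeostatic microglia of the same 8 mice, the cells of clusters 0 and 3, of which there were 11595. In those cells 1653 of 11377 genes were called (14.5%), 1035 higher (9.1%) and 618 lower (5.43%). The response differed between cluster 1 and the homeostatic cells in 1880 of 12247 genes (15.4%), of which 796 had the higher log2 fold change in cluster 1 (6.5%) and 1084 the lower (8.85%). With DESeq2 450 were higher and 1117 lower, and with every sum thinned to the smallest 105 and 394. Without the block for the mouse 125 differed, and without ATV:4D9 replicate 4 1037. The homeostatic sums were small, down to 983429 UMIs, and their make-up differed between arms. ATV:4D9 mice had 105 to 419 such cells and ATV:ISO mice 1900 to 3378, and cluster 3 held 42.9 to 47.5% of them with ATV:ISO and 53.5 to 65.2% with ATV:4D9. With cluster 0 alone as the baseline 592 genes differed, and with cluster 3 alone 1580. Log2 fold changes for each kind of cells come from its own fit and the difference from a joint fit, so the difference is not exactly that of the 2 values. The homeostatic fit held 8 sums without the 4D9 mice, and that of cluster 1 held 12 with them. Numbers of genes called in each kind of cells thus come from fits of unlike power.

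**Figure D5:**
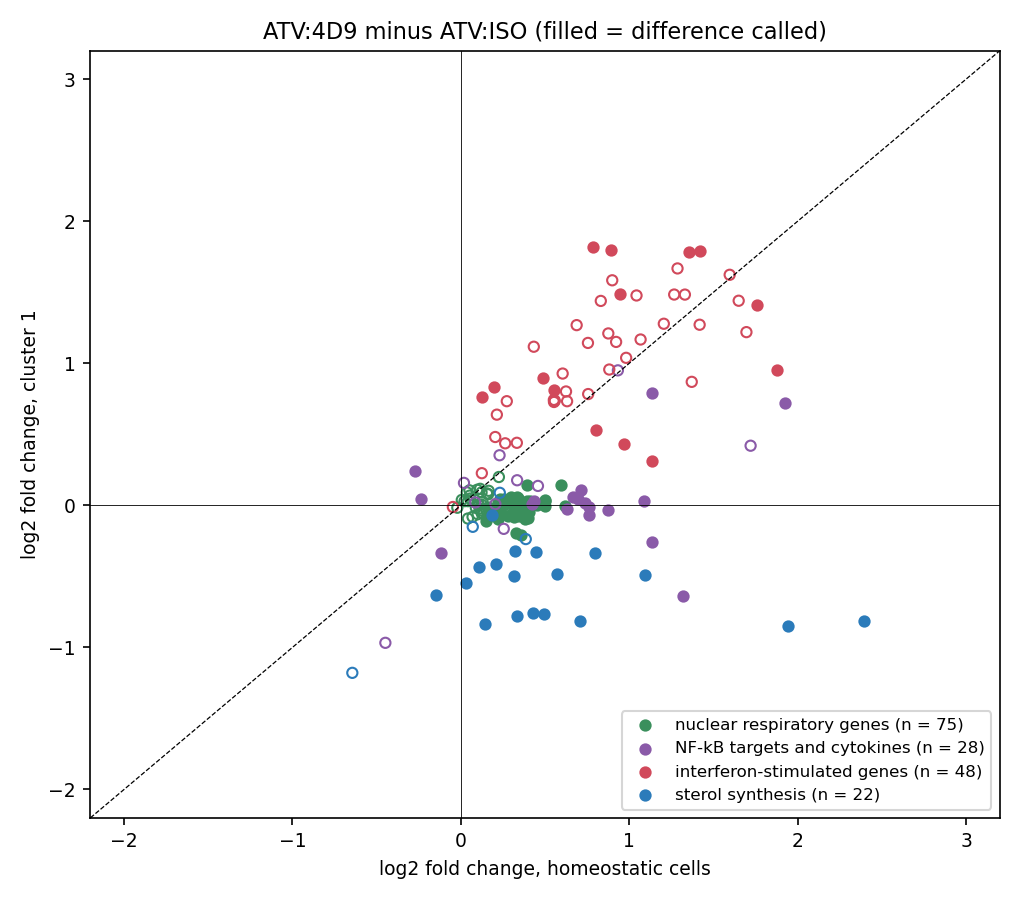
Log2 fold change (ATV:4D9 minus ATV:ISO) in cluster 1 (vertical axis) against that in homeostatic cells (horizontal axis) for the interferon-stimulated (red), sterol synthesis (blue), NF-kB (purple) and nuclear respiratory genes (green) tested in both, filled where the difference of the responses was called. The interferon-stimulated genes lie on both sides of the dashed line of equal response, and the called sterol synthesis genes lie below it.

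Interferon-stimulated genes were higher in both kinds of cells, with 45 of 50 called in cluster 1 and 35 of 48 in homeostatic cells (medians 1.08 and 0.85). With finer cluster 3 alone, as given above, the cluster 1 median was lower and fell below that of homeostatic cells. The difference of the responses was not tested in that setting. The difference itself was called for 9 of them in favour of cluster 1 and for 5 of the 50 in favour of homeostatic cells, where 6.5% and 8.85% of all genes were. The second count is near the share of all genes. Ifit3 rose more in cluster 1, by 0.80 ± 0.11 (SE, adjusted p = 1.06e-06) on the log2 scale, and Ifi27l2a less, with a difference of -0.93 ± 0.08 (SE, adjusted p = 4.40e-08). Ifitm3 (-0.23) and Ifi207 (-0.27) did not pass the test of the difference. Of the sterol synthesis genes 18 of 23 fell in cluster 1 and 0 in homeostatic cells, where 5 of 22 rose, and the difference was called for 19, all lower in cluster 1. Sqle had a log2 fold change of -0.82 in cluster 1 and 2.40 in homeostatic cells, a difference of -2.92 ± 0.59 (SE, adjusted p = 0.00327). The homeostatic value rests on few UMIs, 5 to 36 per mouse with ATV:ISO and 2 to 19 with ATV:4D9. These gave 0.550 ± 0.327 and 2.65 ± 1.11 CPM (mean ± SD, n = 4). With thinned sums 6 of 16 sterol synthesis genes that passed the filter differed. With cluster 0 alone 8 of the sterol synthesis genes differed, with cluster 3 alone 17, without the mouse block 10 and without ATV:4D9 replicate 4 10, and each of these was lower in cluster 1.

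Core DAM genes that changed in homeostatic cells all rose. Of 36, 16 rose and 0 fell in homeostatic cells, compared with 6 and 9 in cluster 1, and 14 differed, all lower in cluster 1. Of all genes 9.1% rose in homeostatic cells, and 8.85% had the lower log2 fold change in cluster 1. With cluster 0 alone as baseline 6 of the core DAM genes differed. Lpl, at 34.1 ± 5.36 (mean ± SD, n = 4) CPM in homeostatic cells with ATV:ISO and 65.6 ± 15.6 with ATV:4D9, was at 941 ± 52.6 and 496 ± 32.0 in cluster 1 on the scale of the joint fit, and the responses differed by -1.84 ± 0.26 (SE, adjusted p = 0.00486). Il4i1 differed by -1.64 ± 0.26 (SE, adjusted p = 2.61e-04). Tnf, the cytokine, had a log2 fold change of -0.64 in cluster 1, where it was not called, and 1.32 in homeostatic cells, a difference of -1.96 ± 0.07 (SE, adjusted p = 1.22e-21). Phlda1, Tnfsf9, Gadd45b, Rab7b and Bcl2a1d were the other leading negative differences, with log2 fold changes near 0 in cluster 1, from -0.27 to 0.13, and from 1.13 to 1.53 in homeostatic cells. On the positive side the lectin Clec4a3 (1.08), Tmem140 (0.97), Garnl3 (0.97), N4bp2l1 (0.79), Gm10790 (0.74), Abca1 (0.79) and Sorl1 (0.76) had the larger log2 fold change in cluster 1, by the log2 differences in brackets, alongside Ifit3. The exporters Abca1 and Abcg1 both rose in cluster 1, while their log2 fold changes in homeostatic cells were -0.10 and -0.12, and for Abcg1 the difference was 0.58 ± 0.08 (SE, adjusted p = 1.37e-06).

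Other lists were compared in the same way. Of all genes 15.4% differed and 8.85% were lower in cluster 1, while with cluster 0 alone 5.09% differed (2.41% higher and 2.68% lower) and with cluster 3 alone 13.5% (5.22% and 8.25%). Of 25 chaperone genes of the endoplasmic reticulum 14 rose in homeostatic cells, and 17 differed, 14 with cluster 0 alone and 17 with cluster 3 alone, all lower in cluster 1. Nuclear respiratory genes differed in 48 of 75, all lower in cluster 1, and in 17 with cluster 0 alone. Within homeostatic cells 43 of the 75 were called higher with ATV:4D9. All 13 mitochondrially encoded genes differed, 8 with cluster 0 alone. Proteasome subunits differed in 21 of 31, and in 4 with cluster 0 alone. Of 23 immediate early genes 15 were lower in cluster 1 in the pooled baseline, 0 with cluster 0 alone, and 4 lower and 2 higher with cluster 3 alone. Of 29 NF-kB targets and cytokines 16 were lower and 2 higher, while with cluster 0 alone 0 were lower and 3 higher. For the nuclear respiratory genes, the proteasome subunits and the immediate early genes 0 differed by edgeR without the block for the mouse.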

How the data were processed

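Single-cell RNA was measured with 10x 3′ chemistry, and mice were told apart by CellPlex tags. Alignment by the authors used Cell Ranger 6.1.1 and the mm10 build, and they clustered the integrated cells with Seurat 4. The deposited matrix holds UMI counts per gene and cell without normalization, and the deposited annotation gives each cell's mouse, group, pool, cluster and percent of mitochondrial UMIs. Which cells the authors had removed, doublets included, is not given in the sources used here. No doublet caller was run, and no cell was filtered here. Counts, genes and mitochondrial percent of all 74758 cells matched the annotation. Of the barcodes 543 (0.732%) were found in more than 1 pool, 20 of them in cluster 1, and 0 were given to more than 1 mouse of a pool.

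The members and gene lists were chosen with earlier results of these data known. UMI counts were summed per mouse over cluster 1 and over the homeostatic clusters 0 and 3. The 12 cluster 1 sums of the AppSAA mice entered 1 fit of edgeR 4.0.16 in R 4.3.3 (filterByExpr, TMM, robust quasi-likelihood test with the pool as a block). Adjusted p-values are Benjamini-Hochberg values over all genes tested, with calls at 0.05. The difference of responses used 16 sums with a block per mouse. The pool pairs the mice by the labels. In the data, deviations from the group means correlated at 0.114 to 0.487 (median 0.358) in the 12 pairs of mice of a pool. In the 36 pairs from different pools they correlated at -0.434 to 0.258 (median -0.147), with 7 over 0.1, so the ranges overlapped. Values per mouse were tested by exact permutation. The 12 sums held at least 5201336 UMIs and the 16 sums at least 983429. Depth as well as the number of mice limits the precision.

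The naming rule covered the 10 largest rises and falls (mean CPM of at least 20, no overlap between arms, same direction in all pools), up to 4 called genes in each direction per list (mean CPM of at least 5), a standing set of microglial genes, and the 8 largest differences in each direction. The 12 genes plotted by mouse were picked later. Alternatives covered the block, the mice in the fit, the scaling (RLE), the filter on low counts, DESeq2 1.42.0, limma-voom (limma 3.58.1), thinning, the cells kept, the homeostatic baseline and leaving out each mouse. On simulated counts with 200 of 12231 genes changed, the fit recovered 100% of 2-fold and 92% of 1.5-fold changes, and 10.7% of its calls were unchanged genes. For the difference, on 12247 genes, it recovered 99% of 2-fold changes and 5.26% of calls were unchanged genes. The changed genes had a mean CPM of at least 5 in the first simulation and at least 20 in the second. The simulated counts held no pool effect and no effect shared by the sums of a mouse. The rates therefore do not cover genes of lower level or data with such effects. Promoters and gene positions came from RefSeq (GRCm38.p6) and GENCODE M21 (GRCm38). Some genes of the standing set and of the lists are not reported here by name.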

Additional observations from a re-analysis of the deposited data

Results flagged for a closer look

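The response to ATV:4D9 in cluster 1 differed from that in homeostatic cells of the same mice in 1880 genes by the edgeR test of the difference, among them 19 genes that the report names for their difference. Other named genes also passed and are not listed here. The log2 fold change was lower in cluster 1 for Sqle (-2.92), Tnf (-1.96), Lpl (-1.84), Tnfsf9 (-1.66), Il4i1 (-1.64), Phlda1 (-1.61), Gadd45b (-1.49), Bcl2a1d (-1.42), Rab7b (-1.42) and Ifi27l2a (-0.93). It was higher in cluster 1 for Clec4a3 (1.08), Garnl3 (0.97), Tmem140 (0.97), Ifit3 (0.80), Abca1 (0.79), N4bp2l1 (0.79), Sorl1 (0.76), Gm10790 (0.74) and Abcg1 (0.58). The baseline for these values was clusters 0 and 3 together. With cluster 0 alone 592 genes differed, and none of the NF-kB targets and cytokines was called lower in cluster 1.

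A mouse that lay far from the other 3 of its arm was found in 14 of 328 groups of 4 mice checked, where chance flags about 1 in 20. In normalised CPM, an outlying ATV:ISO mouse, chosen gene by gene, stood at 2227 for Ccl4 against 2906 to 2945 in the others, at 170 for Cxcl16 against 140 to 144, at 25.2 for Idi1 against 19.9 to 20.7, at 14.4 for Ifi207 against 19.3 to 20.1, at 286 for Lat2 against 221 to 231, at 57.9 for Rab7b against 39.3 to 40.6, and at 13.6 for Tcp11l2 against 10.7 to 11.1. An outlying ATV:4D9 mouse stood at 7.40 for Bysl against 5.14 to 5.51, at 37.6 for Csf2rb against 55.1 to 56.3, at 83.7 for Hfe against 60.2 to 63.5, at 13.3 for Insig1 against 19.4 to 20, at 2061 for Npc2 against 2393 to 2460, at 40.9 for Pttg1 against 47.7 to 48.7, and at 211 for Tmem119 against 306 to 324. Tmem119 was not called between the arms.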

How the results depend on the processing

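No called gene named by the rule reversed its direction under any alternative run. Of 152 named genes called, 48 stayed called without the pool block (no pairing), 110 with every group in the fit, 102 with the same number of cells per mouse, 63 of 149 without cells with 2 or more mitosis UMIs, 134 with DESeq2, 152 with RLE scaling and 124 to 152 with 1 mouse left out. For ATV:4D9 against ATV:ISO the 1343 calls became 215 without the block (138 higher, 77 lower, 213 of them shared), 806 with sums thinned to the smallest, 693 with the same number of cells per mouse and 335 without the mitosis-UMI cells. Thinning and the last 2 settings leave fewer UMIs or cells. Leaving out 1 mouse gave 908 (without ATV:ISO replicate 4) to 1416. For 4D9 against ATV:ISO leaving out 1 mouse gave 0 to 3 calls. For ATV:4D9 against 4D9 it gave 854 to 1187, and no block gave 233. For the difference from homeostatic cells the 1880 calls became 125 without the replicate block (22 higher, 103 lower), 592 with cluster 0 alone, 499 with thinned sums (105 higher, 394 lower), and 1037 (without ATV:4D9 replicate 4) to 1841 with 1 mouse left out. The other alternatives kept these total counts within 1.5 times. By direction, DESeq2 gave 450 higher and 1117 lower differences, where edgeR gave 796 and 1084.

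The difference in median UMIs per cell was -1726 to -694 with 1 mouse left out. That in mitochondrial percent, -0.0259, turned to 0.00727 with the mean over cells, to 0.0314 with finer cluster 3 alone, and ranged from -0.210 to 0.141 with 1 mouse left out. Neither passed its test, and the paired exact test with signs permuted within pools gave p = 0.125 for UMIs, the smallest possible, and 0.375 for the mitochondrial percent. The cause of these changes was not tested.

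Each arm held 4 mice of 1 sex and age at 1 time point. The ATV:4D9 sums were smaller than the ATV:ISO sums, and cluster membership was set by the same transcripts that were compared. UMIs are relative within a mouse, so a fold change does not measure RNA per cell.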
